A study of Sus scrofa with 6 samples.

Results

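Heme oxygenase 1 (HMOX1), the small heat shock protein HSPB6, renalase (RNLS), microsomal glutathione S-transferase 2 (MGST2) and vascular endothelial growth factor A (VEGFA) were described in 2 porcine muscles. The 5 genes are grouped for known roles in stress, redox and hypoxia responses; no stress or low oxygen was applied in the study. They were chosen by name from the authors' deposited table, which keeps probe sets that differ between the muscles at a p-value of 0.05 and by 1.5-fold. The genes had 6 probe sets there, of 549 kept without controls and 23935 measured on the array. Since the same contrast on the same 6 arrays chose them, their differences between the muscles are a description. Nothing is read from the test calls given below.

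Total RNA of the muscles of 3 Meishan gilts of 1 litter, aged 150 days, was hybridised to 6 Affymetrix porcine arrays. There were 3 arrays of longissimus dorsi, a back muscle taken at the last rib, described in the labels as glycolytic and fast-twitch. The other 3 held the deep part of the muscle that the titles call soleus and the protocol calls SE, an oxidative muscle. No treatment is recorded, and the pigs were fed alike with free access to water and killed by stunning and bleeding, so that all samples of both muscles share litter, breed, age and slaughter. Each pig gave both muscles, but no label ties the replicate numbers of the muscles to single pigs, and the 6 arrays are not independent. All values below are log2 expression minus the median of that probe set across all 6 arrays. They show differences between arrays; no level of expression can be read from them, and none can be compared between genes. With 3 arrays a muscle, precision is limited throughout.

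As background, HMOX1 breaks down heme to biliverdin, iron and carbon monoxide and is induced by oxidative stress, heme and other insults; macrophages that take up red blood cells also make it. HSPB6 is a member of the alpha-crystallin family of small heat shock proteins and is abundant in skeletal, heart and smooth muscle. VEGFA drives the growth of capillaries, which are denser in oxidative than in glycolytic muscle, and its gene is a target of the hypoxia-inducible factors. MGST2 is a membrane enzyme that couples glutathione to leukotriene A4 and to reactive lipids. RNLS is a flavin-dependent oxidase of nicotinamide nucleotide isomers, first described as a protein that the kidney secretes.

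The group did not move as one. HMOX1, HSPB6 and VEGFA had higher means in soleus, and RNLS and MGST2 had higher means in longissimus dorsi. Of the authors' deposited table, 323 probe sets were higher in soleus (1.35% of those measured) and 226 lower (0.944%), and the members lie among these by their choice. In 6 of 6 member probe sets all arrays of soleus lay on 1 side of all those of longissimus dorsi, where 6.08% of all probe sets had no overlap with soleus higher and 8.11% with soleus lower. In limma over all 23935 probe sets 6 of 6 also passed an unadjusted p of 0.05 with a 1.5-fold difference, as did 2.89% of all probe sets upward in soleus and 2.2% downward. 0 of the 6 had an adjusted p under 0.05 in limma, which 2 probe sets of the array, or 0.00836%, had. With a variance trend RNLS alone of the 6 came past it, among 10 of 23935 probe sets. That trend ran on the mean of centred values, which hold no intensity. With the authors' unpaired test after Benjamini-Hochberg adjustment RNLS alone of the 6 also came past it, among 2 of 23935. That unpaired test is the one through which the members were chosen. The members were chosen through this contrast at unadjusted limits, which made a lack of overlap and an unadjusted call likely beforehand. The choice did not settle the adjusted calls, but these come from the same contrast on the same arrays. Nothing is therefore read from these counts. In whole muscle, fewer cells of a type and less RNA per cell cannot be told apart.

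**Figure D1:**
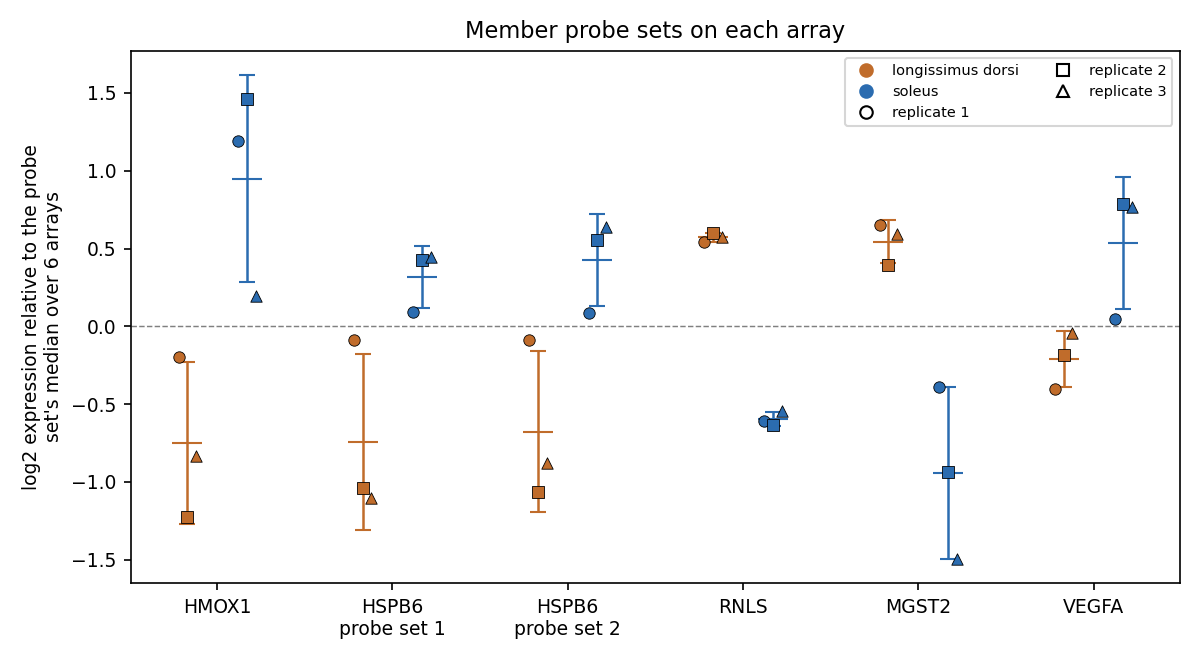
Median-centred log2 expression of the 6 member probe sets (vertical axis), by muscle; symbols mark the replicate number, horizontal bars the mean and error bars the SD of 3 arrays. RNLS has 3 close values in each muscle, whereas for HMOX1, HSPB6 and VEGFA the nearest arrays of the muscles lie close to each other relative to the difference of their means.

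HMOX1 had the largest difference of the 6 probe sets. Its values in longissimus dorsi replicates 1, 2 and 3 were -0.19, -1.23 and -0.83. In soleus they were 1.19, 1.46 and 0.19. Replicates 1 and 2 of soleus stood high and replicate 3 lay 0.39 above the highest longissimus dorsi array. The means were -0.75 ± 0.52 in longissimus dorsi and 0.95 ± 0.67 in soleus (SD, n = 3 arrays each), a log2 difference of 1.70 or 3.25-fold. The difference was the 30th largest in size of the 23935 probe sets, and the pooled within-muscle SD of 0.60 was wider than that of 95.0% of them. Between samples that carry the same number, soleus exceeded longissimus dorsi by 1.39, 2.69 and 1.03. Without soleus replicate 3, whose values over all probe sets were the widest of the 6 arrays (SD 0.50 against 0.24 to 0.31), the difference was 2.08. The probe set carries the suffix that Affymetrix gives to sets whose probes can match more than 1 transcript, so a contribution of a related sequence was not tested.

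HSPB6 was measured by 2 probe sets, which the authors' deposited table lists under gene ID 494560, the number of HSPB6 in RefSeq. On probe set 1 the 3 longissimus dorsi values were -0.09, -1.04 and -1.10 and the 3 soleus values 0.09, 0.42 and 0.45. Probe set 2 gave -0.09, -1.06 and -0.88 in longissimus dorsi and 0.09, 0.55 and 0.64 in soleus. On both, longissimus dorsi replicate 1 lay close to soleus replicate 1, and the other 4 arrays were well apart. The differences of the means were 1.06 and 1.10, or 2.09-fold and 2.15-fold. They rest on replicates 2 and 3: the samples numbered 1 differed by 0.18 on either probe set, against 1.46 and 1.55 for numbers 2 and 3 on probe set 1 and 1.62 and 1.52 on probe set 2. Leaving out longissimus dorsi replicate 1 raised the differences to 1.39 and 1.40.

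The 2 HSPB6 probe sets repeated each other array by array. They differed by 0.0017 on the array numbered 1 of either muscle, where centring makes the values mirror images, so this counts once. The difference was 0.029 on longissimus dorsi replicate 2 and 0.13 to 0.23 on the other 3 arrays. Both read the same 6 RNA samples, so their likeness bears on the measurement of this transcript and not on the number of pigs.

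VEGFA had the smallest difference and came closest to the authors' cut-off. Its values were -0.40, -0.19 and -0.05 in longissimus dorsi and 0.05, 0.79 and 0.77 in soleus. Soleus replicate 1 lay only 0.09 above longissimus dorsi replicate 3, while soleus replicates 2 and 3 were high. The means were -0.21 ± 0.18 and 0.53 ± 0.42 (SD, n = 3 arrays each), a log2 difference of 0.74 or 1.68-fold. The p-value in the authors' deposited table was 0.0485, rank 534 of 549, just inside the cut-off of 0.05. The probe set carries the suffix for sets that match several transcripts of 1 gene, so splice forms of VEGFA were not told apart.

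A further pair of probe sets share the cluster part of VEGFA's identifier and lie outside the authors' table, which gives them no name. Among named probe sets of the table that share this part, 31 of 31 pairs had the same name. These pairs cover listed and named probe sets only, and how the names were assigned was not examined. The count therefore does not identify the unlisted pair as VEGFA. The first, Ssc.15740.1.S2_at, had -0.60, -0.06 and -0.11 in longissimus dorsi and 0.06, 0.86 and 0.90 in soleus. Its difference of 0.86 was larger than that of the listed probe set, but its within-muscle SD was larger too (0.40 against 0.32), and the unpaired test that chose the table gave it 0.056, just outside. The second, Ssc.15740.2.A1_at, had -0.12, -0.003 and 0.003 in longissimus dorsi and -0.01, 0.27 and 0.43 in soleus. There soleus replicate 1 fell within the longissimus dorsi range, and the difference was 0.27. On all 3 probe sets soleus replicates 2 and 3 were the highest arrays and longissimus dorsi replicate 1 was the lowest. HMOX1, RNLS, MGST2 and HSPB6 had no unlisted probe set of this kind.

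**Figure D2:**
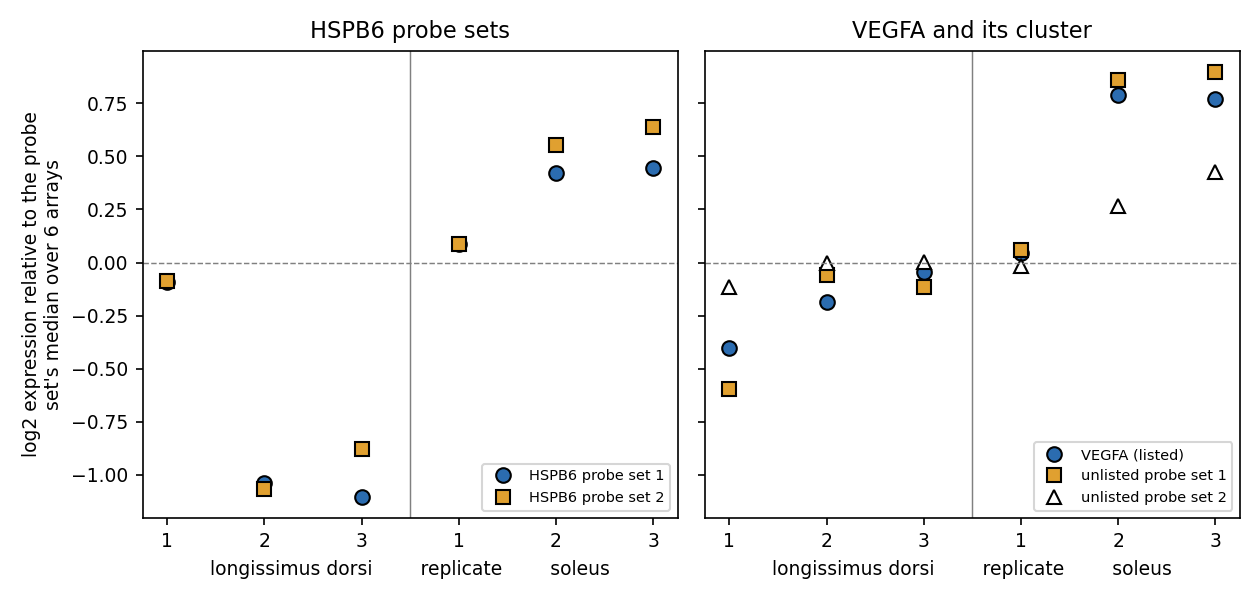
Median-centred log2 expression (vertical axis) by array (horizontal axis), for the 2 HSPB6 probe sets and for the listed VEGFA probe set with the 2 unlisted ones of its cluster. The HSPB6 symbols nearly coincide on replicates 1 of both muscles, which centring makes mirror images of each other. In the VEGFA cluster soleus replicates 2 and 3 are highest on every probe set while the size differs.

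RNLS was the tightest of the members. Its values were 0.54, 0.60 and 0.57 in longissimus dorsi and -0.61, -0.63 and -0.54 in soleus. All 3 longissimus dorsi arrays were high and all 3 soleus arrays low, with no array between. The means were 0.57 ± 0.03 and -0.59 ± 0.05 (SD, n = 3 arrays each), a log2 difference of -1.17, or 2.25-fold higher in longissimus dorsi. The pooled within-muscle SD was 0.038, a value that 0.263% of all probe sets undercut, where the median over probe sets was 0.24. In the authors' deposited table its p-value of 2.99e-06 was the second smallest, while its fold ranked 100 of 549. Samples of the same number differed by -1.15, -1.23 and -1.12. The probe set was titled through similarity to human renalase, as no porcine gene symbol is given for it.

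MGST2 also ran towards longissimus dorsi, with the largest downward difference of the members. It had 0.65, 0.39 and 0.59 in longissimus dorsi and -0.39, -0.94 and -1.49 in soleus. The longissimus dorsi arrays were close together and the soleus arrays spread over 1.10, with replicate 3 lowest. The means were 0.54 ± 0.14 and -0.94 ± 0.55 (SD, n = 3 arrays each), a log2 difference of -1.49, or 2.80-fold higher in longissimus dorsi. It was the 57th largest difference in size on the array. Without soleus replicate 3 it was -1.21, and without soleus replicate 1 it was -1.76. The title rests on a moderate similarity to the human protein, so the name is less firm than those of HMOX1 and VEGFA, which carry porcine symbols.

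**Figure D3:**
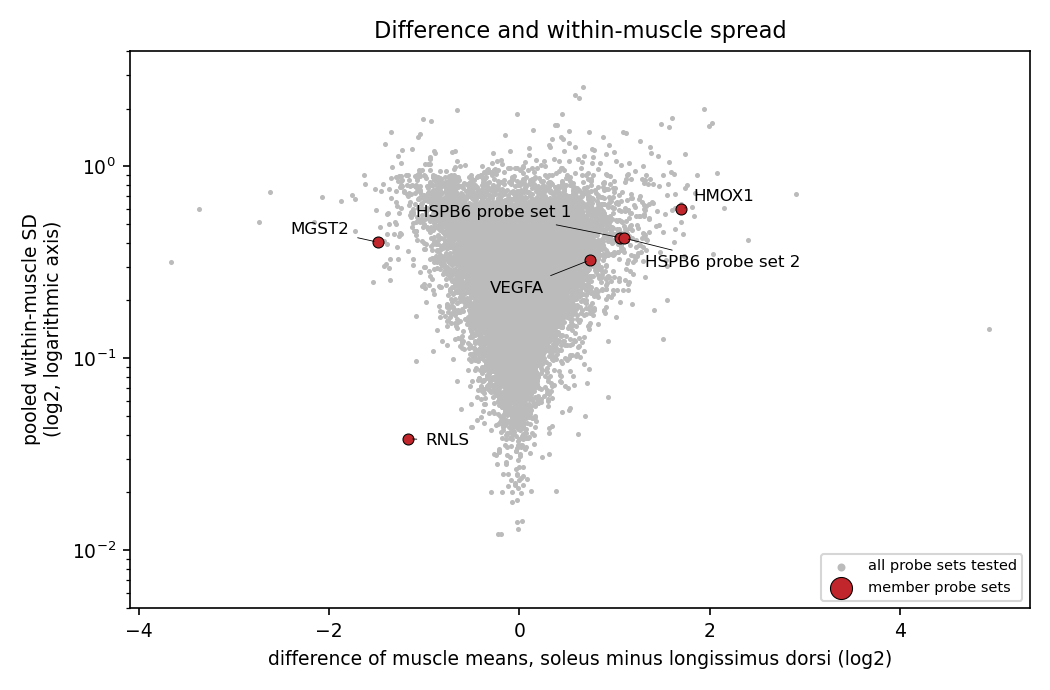
Difference of the muscle means, soleus minus longissimus dorsi, on the log2 scale (horizontal axis) against the pooled within-muscle SD on a logarithmic axis (vertical axis), for 23935 probe sets (grey) and the 6 member probe sets (red). RNLS, at -1.17 with an SD of 0.038, lies below the cloud of its neighbours, and HMOX1, at 1.70 with an SD of 0.60, lies among the wide ones.

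The members also differed in how far the muscles were apart relative to the difference of their means. The gap between the nearest arrays of the 2 muscles was 93.1% of the difference of means for RNLS and 52.7% for MGST2. It was 22.9% for HMOX1, 16.9% and 16.0% for the HSPB6 probe sets and 12.2% for VEGFA, against a median of 43.1% over the 549 listed probe sets. Of those listed, 1 had a larger share than RNLS and 17 had a smaller one than VEGFA. Centring makes the arrays on either side of the gap mirror images around 0, as with longissimus dorsi replicate 1 and soleus replicate 1 for HSPB6, so that these values hold 1 measurement and not 2. The nearest longissimus dorsi array was replicate 1 in 4 of 6 member probe sets, and among the 3395 probe sets of the array without overlap it was replicate 1 in 33.9%. The nearest soleus array was replicate 1 in 4 of 6 and replicate 3 in 2 of 6, against 43.0% and 18.6% over the array. The HSPB6 probe sets, which read the same RNA samples, supply 2 of the 4 for replicate 1 in either muscle. For RNLS the arrays lay within 0.06 in longissimus dorsi and 0.09 in soleus, so little separates the nearest array from the others. Nothing is read from these counts.

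No difference changed direction when 1 array was left out. Ranges were 1.44 to 2.08 for HMOX1, 0.88 to 1.39 and 0.91 to 1.40 for the HSPB6 probe sets, 0.62 to 0.99 for VEGFA, -1.19 to -1.15 for RNLS and -1.76 to -1.21 for MGST2. A probe set whose muscles do not overlap cannot change direction in this way, so this says nothing about stability, and the widths alone describe the spread.

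**Figure D4:**
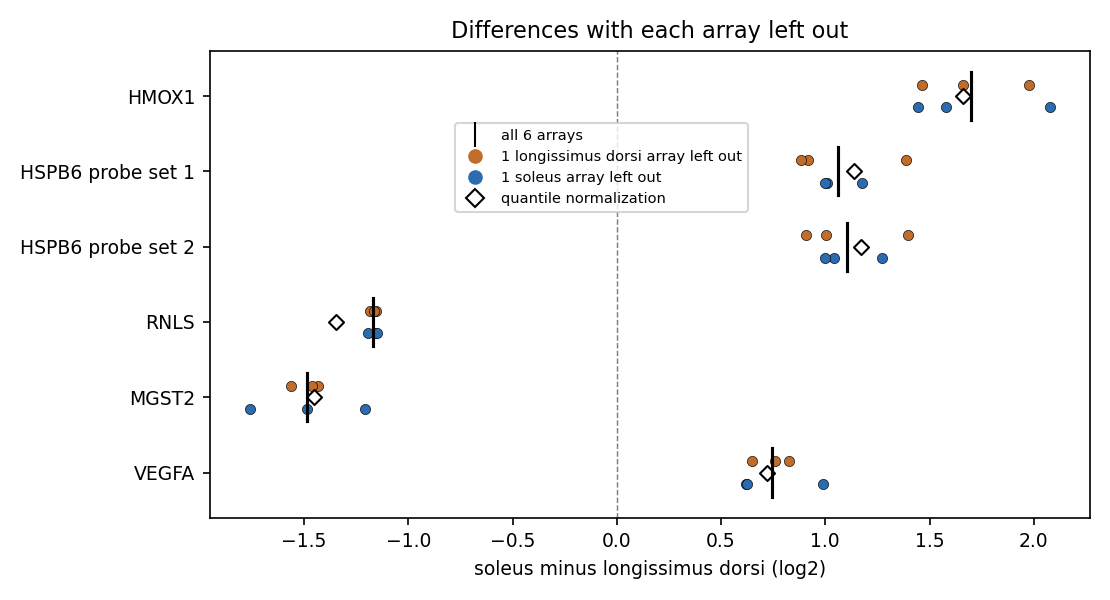
Difference of the muscle means, soleus minus longissimus dorsi, on the log2 scale (horizontal axis) for each member probe set with all 6 arrays (line), with 1 array left out (circles) and after quantile normalization (diamonds). RNLS spans -1.19 to -1.15 with an array left out, and HMOX1 spans 1.44 to 2.08.

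Other genes of the same pathways were almost unseen, because the sources used here name genes for listed probe sets alone. The 6 pathway lists (heme and iron, small heat shock proteins and chaperones, glutathione and antioxidant enzymes, flavin and monoamine oxidases, hypoxia response and vessel growth, immediate stress and injury) held 91 genes besides the members, of which 1 was named. This was GSTO1, a glutathione transferase that reduces oxidised substrates, with 0.45, 0.26 and 0.13 in longissimus dorsi and -0.13, -0.25 and -0.68 in soleus. Its mean was lower in soleus by a log2 difference of -0.64, the side of MGST2, and it had no adjusted p under 0.05 in limma. The glutathione list thus had 2 of its 29 genes named, both with lower means in soleus and a median of -1.06. Both were named because the table kept them for differing, so the fitting background is that of the listed probe sets, of which 226 of 549 were lower in soleus and whose median was 0.66; the median over all probe sets tested was -0.03. The heme, chaperone, oxidase and hypoxia lists had their member alone (1 of 12, 1 of 19, 1 of 4 and 1 of 23), and the stress list had 0 of 9. The partners of the members, such as the receptors of VEGFA, biliverdin reductase or the other small heat shock proteins, were not analysed here. A listed title, heat shock protein 2, was not matched to a gene of the chaperone list and is given below.

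Markers of other cells were also named only where the table kept them for differing, and 0 had an adjusted p under 0.05 in limma. The fibroblast and tendon list had 4 of 8 genes named (COL1A1, COL1A2, COMP and FMOD), all with higher means in soleus. The mean of these 4 was -0.68 to -0.28 on the longissimus dorsi arrays and 0.42 to 0.91 on those of soleus, the side of HMOX1, HSPB6 and VEGFA. Of smooth muscle, which also makes HSPB6, 2 of 5 genes were named (MYH11 and CNN1). Their mean was -0.69 to -0.30 in longissimus dorsi and 1.16, 0.26 and 0.33 on soleus replicates 1, 2 and 3. It was highest on soleus replicate 1, where MYH11 stood at 1.54 and CNN1 at 0.77. Both HSPB6 probe sets were at 0.09 there, the centring mirror of longissimus dorsi replicate 1. Whether smooth muscle bears on the HSPB6 values was not tested. The leukocyte and macrophage list had 1 of 8, LAPTM5, at -0.69, -0.27 and -0.12 in longissimus dorsi and 0.25, 0.52 and 0.12 in soleus. Its lowest soleus array was replicate 3, as for HMOX1, and its highest longissimus dorsi array was replicate 3, which was replicate 1 for HMOX1. The part of these cells in the members' differences was not tested.

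Of the nerve and Schwann cell list 1 of 4 was named, MBP, at 0.59, 0.45 and 0.37 in longissimus dorsi and -0.56, -0.37 and -0.38 in soleus, the side of RNLS and MGST2. The endothelial (6 genes), red blood cell (6) and adipocyte (4) lists had no named gene. Fibre markers ran both ways. Of the slow fibre list 3 of 8 were named, with MYBPC1 (1.14 and 1.19 on its probe sets) and MYOZ2 (0.86) higher in soleus. A slow myosin heavy chain title (counted as MYH7) was lower in soleus, by -0.98 with no overlap of the muscles, which goes against the label of an oxidative muscle. Of the fast fibre list 1 of 8 was named, MYH4, lower in soleus by -0.59. Centred values cannot show that a marker is absent, so only directions could be seen. Of the 4 named fibre markers 3 ran the way of the labels and the slow myosin title did not. All 4 were named because the table kept them for differing, and of its 549 probe sets 323 were higher in soleus and 226 lower. The count therefore does not check the identity of the muscles.

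Among 286 named genes of the table that are no members, the patterns most like those of the members were sought by the root mean square difference of the 6 array values. The nearest to HMOX1 were the trophoblast glycoprotein at 0.37, the matrix glycoprotein TNC at 0.39 and the membrane protein EMP1 at 0.41. None came as close as for the other members, but the measure is not scaled to the size or spread of the values. HMOX1 had the largest difference and the largest pooled SD of the members, so its distances do not mark a more particular pattern. For RNLS the nearest was a nudix-type motif title at 0.11, followed by MBP at 0.16 and the slow myosin title (MYH7) at 0.19. For HSPB6 a disks large-associated protein title was nearest on both probe sets, at 0.19 and 0.16. On probe set 1 it was followed by the transmembrane prostate androgen induced transcript at 0.24 and the nuclear envelope protein LMNA at 0.25. On probe set 2 it was followed by an integrin alpha chain title at 0.18 and the androgen induced transcript at 0.20. For MGST2 the nearest were a histone cluster title at 0.18, kappa B-ras at 0.21 and a ChaC cation transport regulator-like title at 0.24. For VEGFA they were the polypyrimidine tract-binding protein (symbol PTB) at 0.15, cytospin A at 0.18 and a Sec61 alpha subunit title at 0.18. All these genes were listed for differing between the same muscles, on the same 6 arrays.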

How the data were processed

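RNA of 2 muscles of 3 pigs was hybridised to Affymetrix porcine GeneChips after TRIzol and RNeasy purification and in vitro transcription labelling with biotin, per the labels' protocols. MAS5 2.3.1 is named in the submitters' processing notes, without its role. How arrays were scaled and probes summarised, and on which genome build, was not given in the sources used here. Deposited values are log2 expression from which the authors subtracted each probe set's median, as the value table shows. Signal over background is therefore unknown. The authors' deposited table gives, per the file headers, an unadjusted p-value from an unpaired test, and a fold as the larger over the smaller mean.

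Of 24123 probe sets 188 controls were left out. The others were fitted with limma 3.58.1 in R 4.3.3 (muscle as the factor, Benjamini-Hochberg adjustment, threshold 0.05). Alternatives were quantile normalization, a replicate block, the authors' test, a variance trend on the mean deposited value, medians, and each array left out. Values were summarised in Python 3.11.15.

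Genes were taken by symbol, or by a title matched by hand. The members, lists and tests were chosen with earlier results of these data known. Named are all member probe sets, all listed pathway and marker genes, and the 3 nearest named genes per member. Titles of hypothetical proteins were left out there. Sequences and coordinates were not used here.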

Additional observations from a re-analysis of the deposited data

How the results depend on the processing

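Of 54 alternative values for the members' differences, 53 moved by less than the pooled SD of the arrays and 0 changed sign. The exception was RNLS, which went from -1.17 to -1.35 after quantile normalization, against an SD of 0.038. The cause was not tested. Most of this tally was fixed beforehand and says nothing about stability. Leaving out 1 of 3 arrays cannot move a difference by the pooled SD. Without overlap of the muscles, left-out arrays, medians and same-numbered samples cannot change the sign of a difference. With 1 array left out the differences were 1.44 to 2.08 for HMOX1, 0.88 to 1.39 and 0.91 to 1.40 for HSPB6, -1.19 to -1.15 for RNLS, -1.76 to -1.21 for MGST2 and 0.62 to 0.99 for VEGFA. The count of 2 adjusted calls over the array became 6 with quantile normalization and 7 with the replicate block. It was 10 with a variance trend on the mean deposited value, and 1 to 4 with 1 array left out. The count of 1219 at the unadjusted limits became 549 with the authors' test, was 1688 with the replicate block and ran from 797 (without longissimus dorsi replicate 2) to 2501 (without soleus replicate 1). Across probe sets, deviations from the muscle means correlated at -0.14, 0.11 and 0.25 between samples of 1 number. Samples of unlike number were not compared in this way, so these values cannot show whether the numbers mark pairs. The numbers were not taken as pairs because no label ties them to single pigs. Leaving out soleus replicate 3 was looked at again after seeing the data. Filters on dim probe sets need intensities and could not be run.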

Other observations

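Other listed probe sets were looked up by words in their titles after their values were seen. The words were those of heat shock, DnaJ, glutathione, peroxide or peroxisome, oxidase, oxygenase, endothelium and angiopoietin. There were 13 besides the members, with 6 higher and 7 lower in soleus. Among the lower ones 1 gene counts with 2 probe sets. The median difference of the 13 was -0.59. For all 549 listed probe sets, 323 were higher and 226 lower in soleus, with a median of 0.66. The title heat shock protein 2, matched to a mouse protein, differed by 0.93, on the side of HSPB6. It had -0.72, -0.76 and -0.25 in longissimus dorsi and 0.36, 0.45 and 0.25 in soleus. Which family of heat shock proteins this title belongs to was not resolved here. Prostaglandin-endoperoxide synthase 1, the constitutive cyclooxygenase, differed by 1.25. Endothelin 1 (EDN1), a vasoconstrictor peptide of the endothelium, differed by 0.75, and the secreted angiopoietin-like protein ANGPTL2 by 1.32. The other probe sets on this side were lysyl oxidase-like 3, an enzyme that crosslinks matrix proteins, at 1.37, the largest of the 13, and the membrane protein STEAP at 1.12.

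On the side of RNLS and MGST2 were the assembly factor of cytochrome c oxidase COX11 (-1.09), a DnaJ co-chaperone title (-0.69) and the peroxisome biogenesis factors 13 (-0.68 and -0.59 on its probe sets) and 7 (-0.60), beside GSTO1 (-0.64) and SCYE1 (-0.59). For COX11 the soleus values were -0.15, -0.72 and -1.33, with replicate 3 lowest as for MGST2. Replicate 3 was also the lowest soleus array for GSTO1, SCYE1, the DnaJ title and factor 7, but not for factor 13. That array had the widest values over all probe sets. These genes were listed for differing between the muscles, so no test is given.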
